A study of Homo sapiens with 6 samples.

Results

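The WNT ligand genes of the primitive streak were examined for binding of the T-BOX transcription factor BRACHYURY (BRA, the product of T). Binding was measured by chromatin immunoprecipitation and sequencing (ChIP-seq) in H9 cells, an established human embryonic stem cell line, after 36 h of differentiation in 1 of 2 media. Both media held 20 ng/ml FGF2 and 10 μM of the PI3 kinase inhibitor LY294002. FLyA medium further held 100 ng/ml activin A and gave cells labelled as endoderm progenitors, and FLyB medium held 10 ng/ml BMP4 and gave cells labelled as mesoderm progenitors. Each medium was profiled with 1 library for the R&D Systems antibody and 1 for the Santa Cruz antibody, and each medium has 1 input DNA library, not analysed here. The 4 lists hold the positions of 400 bp peaks and nothing on expression, so the cell labels could not be checked against marker genes.

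The members were the peaks of all 4 lists whose midpoint fell in 6 windows that cover the gene bodies of 8 WNT genes and 50 kb on either side. WNT3 and WNT9B share a window of 212 kb on chromosome 17, and WNT3A and WNT9A share a window of 240 kb on chromosome 1. WNT5A (chromosome 3, 121 kb), WNT5B (chromosome 12, 130 kb), WNT8A (chromosome 5, 110 kb) and WNT11 (chromosome 11, 121 kb) have a window each. Together the windows span 934 kb and held 79 of the 54994 peaks. Positions are given in build hg19, counted from 1. The limits of the gene bodies are those set by the windows, which are rounded to 1 kb. In the paired windows only the outer ends of the pair are set in this way, so peaks there were not assigned to 1 gene of the pair.

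WNT proteins are secreted, lipid-modified glycoproteins that bind Frizzled receptors on nearby cells. WNT3, WNT3A and WNT8A act mainly through the canonical branch, in which β-catenin is stabilised and enters the nucleus to switch on genes with TCF and LEF factors. WNT5A, WNT5B and WNT11 act mainly through β-catenin-independent branches that steer cell polarity and movement. In the mouse, Wnt3 is needed for the primitive streak to form, Wnt3a for somites and tail mesoderm, and Wnt5a for outgrowth of the body axis, and the gene for BRA is itself a target of canonical WNT signalling.

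In the windows with 1 gene, the gene start used here is the end of the gene body set by the window, rounded to 1 kb. Peaks lay within 1 kb of this start for WNT5A, WNT8A and WNT11. More than 1 start is listed for WNT5A and for WNT5B, and the distance of peaks from any other listed start was not measured. For the paired windows, the distance of peaks from the gene starts was not measured. The bases before the starts of WNT5A and WNT8A are shown, as no start of WNT11 was listed. They are the 250 bases before each start in the RefSeq table of build GRCh38.p14. The peaks are in hg19, so these bases were not placed under any peak, and which listed start is the one that bounds the window was not determined. Capitals mark the letters TCACACC, the core that T-BOX factors recognise, read on either strand.
WNT5A, first start (chr3:55487307-55487556, minus strand): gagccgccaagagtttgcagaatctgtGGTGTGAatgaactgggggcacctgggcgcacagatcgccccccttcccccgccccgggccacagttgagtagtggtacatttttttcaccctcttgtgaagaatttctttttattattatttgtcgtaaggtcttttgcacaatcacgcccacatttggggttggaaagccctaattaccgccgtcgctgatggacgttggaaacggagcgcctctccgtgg
WNT5A, second start (chr3:55481399-55481648, minus strand): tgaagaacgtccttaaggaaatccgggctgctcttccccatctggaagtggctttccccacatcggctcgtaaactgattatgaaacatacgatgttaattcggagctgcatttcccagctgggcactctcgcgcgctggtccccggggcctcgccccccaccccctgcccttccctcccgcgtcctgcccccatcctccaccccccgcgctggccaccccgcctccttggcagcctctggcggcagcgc
WNT8A (chr5:138083783-138084032, plus strand): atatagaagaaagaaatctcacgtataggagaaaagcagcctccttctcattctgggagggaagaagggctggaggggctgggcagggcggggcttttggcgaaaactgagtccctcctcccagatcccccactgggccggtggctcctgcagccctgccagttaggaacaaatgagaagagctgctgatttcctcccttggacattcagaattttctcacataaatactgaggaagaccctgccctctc

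The only match to TCACACC or its reverse complement GGTGTGA lay before the first start of WNT5A, and its first base stood 223 bases before that start. The table held 9 starts of 7 of the 8 genes, with none for WNT11, and in windows of 300 bases (250 before to 50 after the start) the TCACACC letters were in 1 of the 9. They were in 3.45% of all 35116 promoters of the table. The shorter core CACACC, which is part of TCACACC, was in 2 of the 9, those of WNT3A and of the first start of WNT5A, and in 16.8% of all promoters. A match is a string of letters, not a measured site, and a lack of one says only that these letters were not in the window.

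All 6 windows held peaks, and they differed widely in how many. In the R&D Systems lists, the windows held 30 FLyA peaks and 37 FLyB peaks. In the Santa Cruz lists, they held 5 FLyA peaks and 7 FLyB peaks. The WNT3 and WNT9B window alone held 34 of the 79 peaks, followed by WNT8A with 14, WNT3A and WNT9A with 12, WNT5B with 10, WNT5A with 7 and WNT11 with 2.

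**Figure D1:**
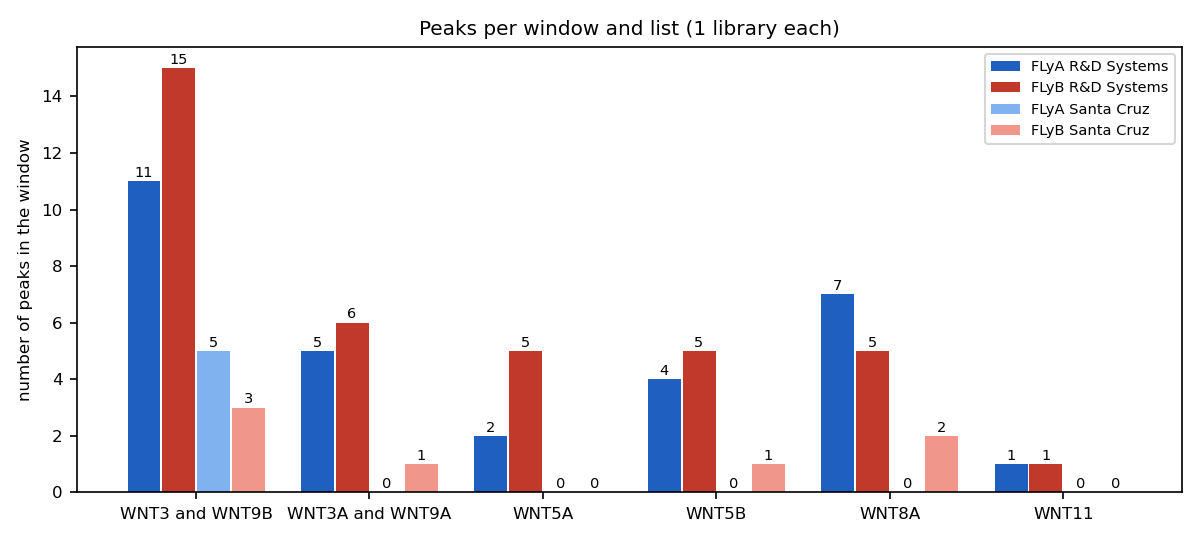
Number of peaks (vertical axis) in each of the 6 windows, with 1 bar per list and 1 library behind each bar. The WNT3 and WNT9B window is highest in all 4 lists, with 11 and 15 R&D Systems peaks, and its 5 FLyA Santa Cruz peaks are the only ones of that list.

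The windows were compared with the rest of the genome by density. The R&D Systems lists had 8.79 FLyA and 8.05 FLyB peaks per Mb over the part of the chromosomes that the lists span, and 32.1 and 39.6 per Mb in the 6 windows. Overlapping R&D Systems peaks of the media were then merged into sites, which gave 49 sites in the windows, or 52.5 per Mb. The mean of all 29445 tiles of 100 kb was 13.9 per Mb, 3.78-fold lower. Without the WNT3 and WNT9B window the difference was 3.09-fold. The windows surround genes, whereas the tiles cover the genome whether or not it holds genes, so the fold does not set WNT genes apart from other genes.

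Of all tiles of 100 kb, 40.0% held no R&D Systems site, which lowers each share given next. Window by window, the share of all tiles of 100 kb that were at least as dense in R&D Systems sites was 0.764% for WNT3 and WNT9B (18 sites), 1.30% for WNT8A (8 sites) and 2.15% for WNT5B (8 sites). It was 6.12% for WNT5A (5 sites) and 10.6% for WNT3A and WNT9A (8 sites). WNT11, with 2 sites, was matched by 34.2% of the tiles, and its 16.5 sites per Mb were close to the mean. The windows are of different lengths, so tiles as long as each window were also counted. The share was then 0.309% for WNT3 and WNT9B, 1.54% for WNT8A, 2.52% for WNT5B, 8.85% for WNT5A, 10.2% for WNT3A and WNT9A and 41.0% for WNT11, in the same order. Chromosome 17 held more peaks per Mb than the other chromosomes of the windows, in each list. Among tiles of its own length on its own chromosome, the WNT3 and WNT9B window was matched by 3.66%. The same share was 1.46% for WNT8A, 2.43% for WNT5B, 7.33% for WNT5A, 12.2% for WNT3A and WNT9A and 44.2% for WNT11.

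**Figure D2:**
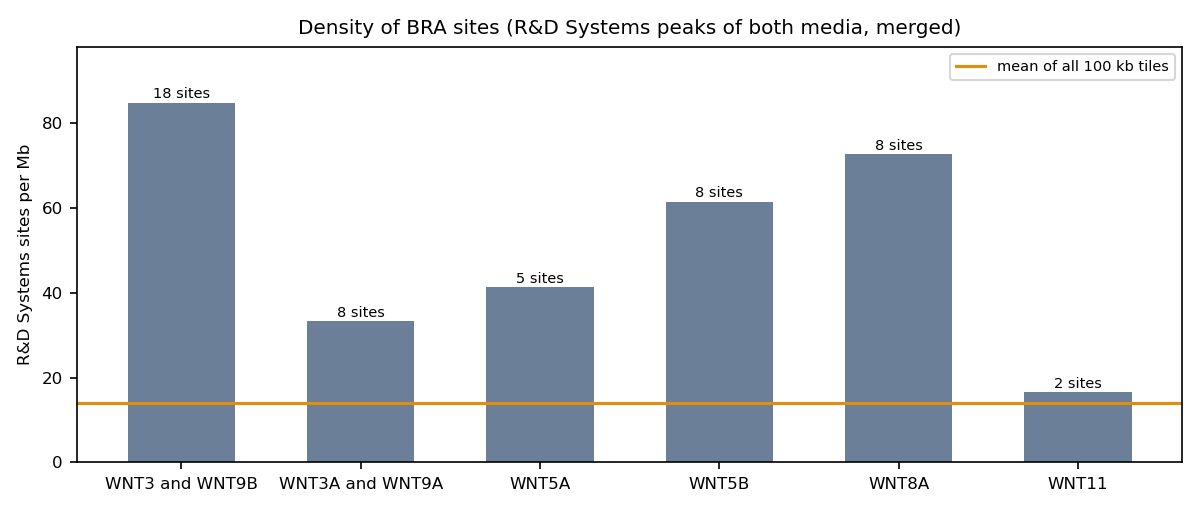
R&D Systems sites per Mb (vertical axis, from 0) in each window, with the number of sites above each bar and the mean of all 100 kb tiles (13.9 per Mb) as a line. WNT3 and WNT9B (84.9 per Mb) and WNT8A (72.7 per Mb) stand highest, and WNT11 (16.5 per Mb) stands near the line.

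WNT3 is the WNT ligand that is needed for the streak to form, and WNT9B is best known from the kidney and the face. Peaks of the 4 lists that overlapped each other were merged, which gave 19 sites in their window. WNT3 lies on the left, on the minus strand, and WNT9B on the right, on the plus strand, so the starts of the genes face each other and the outer ends of the pair are 3′ ends. Of the 19 sites, 14 lay between these ends and 1 lay beyond the 3′ end of WNT9B. The other 4 lay beyond the 3′ end of WNT3, on the side of NSF, the next protein-coding gene. Whether they lie inside NSF was not determined.

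The peaks were not spread evenly. From 6.5 to 25.7 kb inside the 3′ end of WNT3, 9 sites with 17 peaks stood within 19.6 kb (chr17:44848337-44867976), none more than 6 kb from the next. Of these 9 sites, 3 had R&D Systems peaks of both media, 5 had an R&D Systems peak of FLyB only and 1 of FLyA only. One of them, chr17:44850535-44850963, was called in all 4 lists, with midpoints within 29 bp. It was the only such site in the windows, and 226 of the 43081 sites of the whole series (0.525%) were in all 4 lists.

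Next to it, the media and antibodies did not match. At chr17:44849796-44850196, an R&D Systems FLyB peak and a Santa Cruz FLyA peak had midpoints 1 bp apart, and neither the R&D Systems FLyA list nor the Santa Cruz FLyB list held an overlapping peak. The nearest R&D Systems FLyA peak lay 0.48 kb away. At chr17:44863073-44863545 and chr17:44867516-44867976, R&D Systems peaks of both media coincided with a Santa Cruz FLyB peak.

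A second group lay further towards WNT9B, from 50.1 to 57.3 kb from the 3′ end of WNT3, with 3 sites within 7.62 kb. The start of WNT3 was not placed in hg19, so whether these sites lie in WNT3, at its start or past it was not determined. The first held an R&D Systems FLyB peak, and the middle one, chr17:44896552-44896993, R&D Systems peaks of both media. The innermost, chr17:44899027-44899501, held R&D Systems peaks of both media and a Santa Cruz FLyA peak. Beyond the 3′ end of WNT3, at 31.7 kb, chr17:44810084-44810507 held the same 3 peaks. The Santa Cruz FLyA peak at chr17:44822460-44822859 overlapped no other peak of any list. Further towards WNT9B, at 67.8 kb from the 3′ end of WNT3, chr17:44909586-44910009 held R&D Systems peaks of both media. At 71.4 kb there was a FLyB peak alone. A stretch of 58.1 kb on the WNT9B side held no peak, up to the site at chr17:44971691-44972201, 17.9 kb past the 3′ end of WNT9B, where the R&D Systems lists of both media had a peak and the Santa Cruz lists had none.

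**Figure D3:**
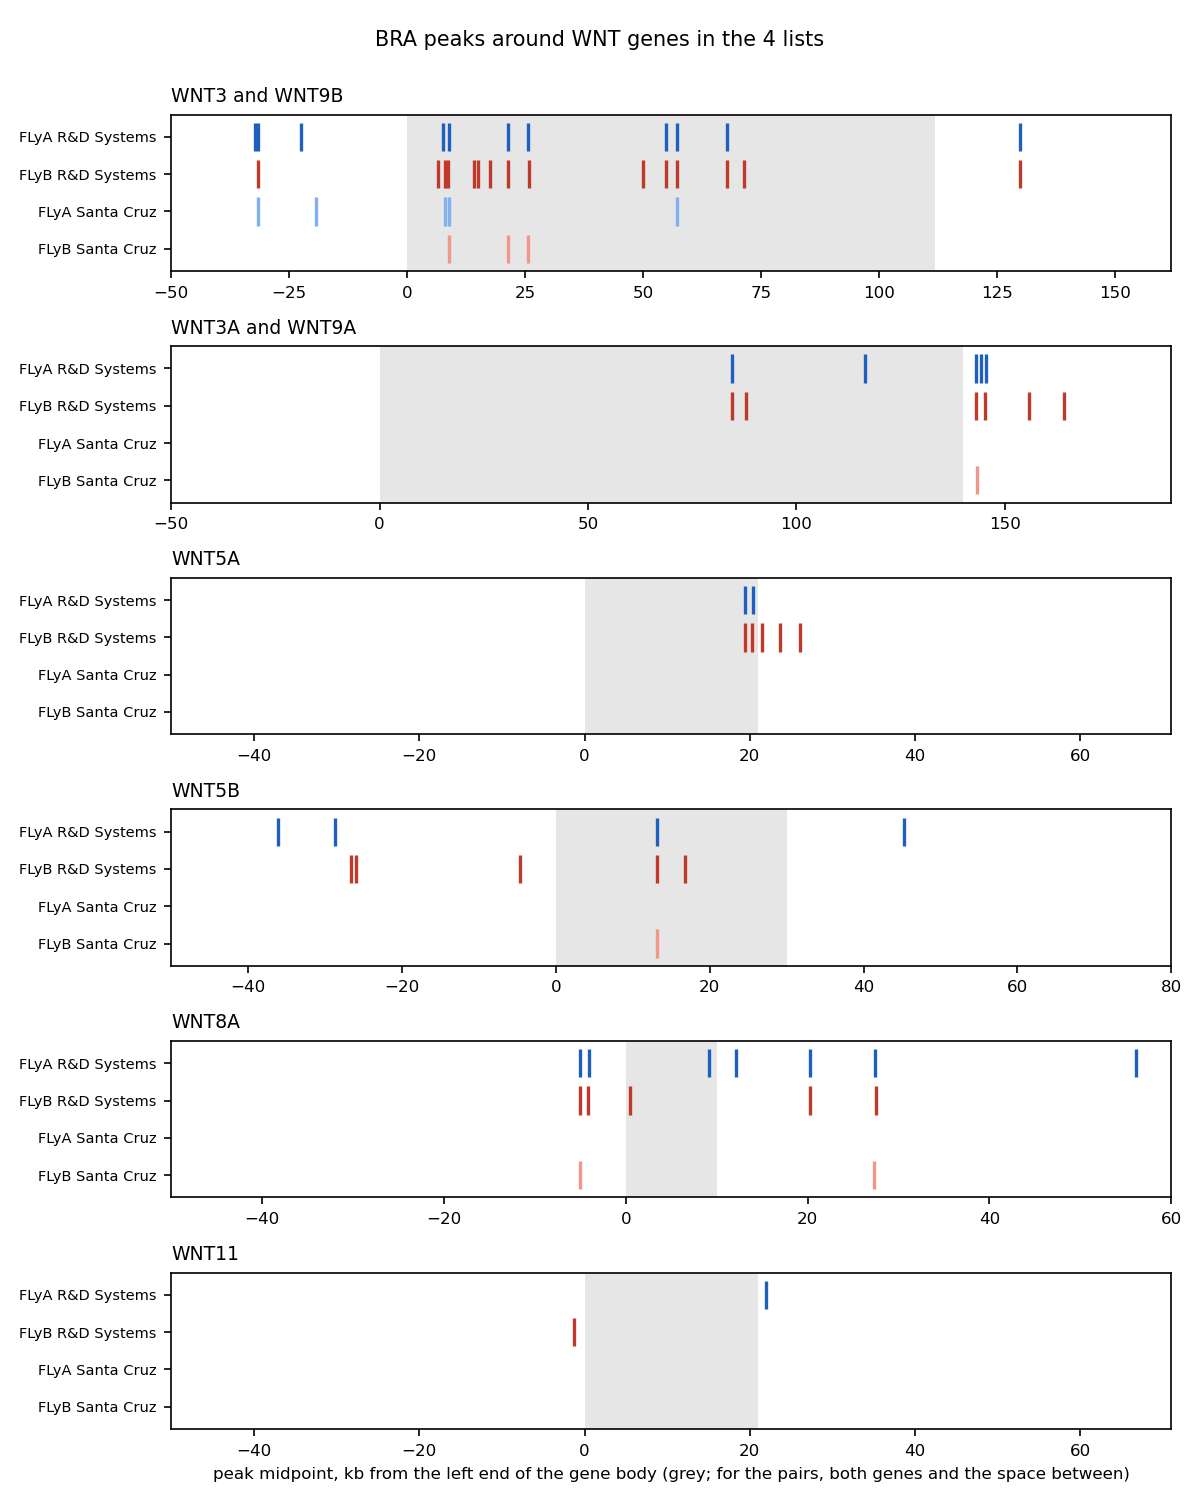
Midpoints of all 79 peaks (vertical ticks, 1 row per list) in kb from the left end of the gene body, which is shaded grey and, in the pairs, spans both genes and the space between them. Peaks of the lists stand above each other at many places in the WNT3 and WNT9B window and in the WNT8A window, and the left part of the WNT3A and WNT9A window is empty.

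WNT3A, a ligand of tail mesoderm, and WNT9A, which acts in joint formation, have the same arrangement, with WNT9A on the left and the minus strand. The first 134 kb of their window, which includes the 3′ end of WNT9A and the flank beyond it, held no peak in any list. All 8 sites of this window lay on the WNT3A side. A site at chr1:228193419-228193846 had R&D Systems peaks of both media, 55.4 kb from the 3′ end of WNT3A on the side of WNT9A. The start of WNT3A was not placed in hg19, so whether this site lies in the gene or before its start was not determined. An R&D Systems FLyB peak without a FLyA peak stood 3.23 kb further on. Most sites lay past the end of the gene. Just past the 3′ end of WNT3A, at 3.3, 4.3 and 5.5 kb, 3 sites stood within 2.68 kb. The first, chr1:228252043-228252483, was the only site of this window with a Santa Cruz peak, which was a FLyB peak. The first and the third held R&D Systems peaks of both media, and the second a FLyA peak. At 15.9 and 24.2 kb past the 3′ end, the sites held FLyB peaks alone.

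WNT8A, a canonical ligand expressed in the early streak, had 8 sites in the smallest window. Its gene start is the left end of its gene body. At 5.0 and 4.1 kb before the start, chr5:137413788-137414213 and chr5:137414644-137415097 held R&D Systems peaks of both media, and the first also held a Santa Cruz FLyB peak. At 0.5 kb after the start, chr5:137419331-137419730 held an R&D Systems FLyB peak alone. The peaks of FLyA alone lay elsewhere, at 9.1 kb, near the 3′ end of the gene, and at 12.1 and 56.1 kb. The last of these lay 46.1 kb past the 3′ end of WNT8A, and its distance from the starts of neighbouring genes was not measured. Further downstream, at 20.2 kb, the FLyA and FLyB midpoints were 4 bp apart, and at 27.4 kb the site chr5:137446137-137446707 was found with both antibodies in FLyB and with the R&D Systems antibody in FLyA. The Santa Cruz FLyA list held no peak in this window.

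WNT5A, a ligand that guides cell movement and axis outgrowth, had its peaks at the gene start and nowhere else in the window. All 5 sites lay within 7.15 kb, from 1.6 kb after to 5.1 kb before the start. Both sites after the start, chr3:55519182-55519622 and chr3:55520116-55520597, had R&D Systems peaks of both media. The 3 sites at the start and before it, at 0.5, 2.6 and 5.1 kb, had an R&D Systems FLyB peak and no FLyA peak. The nearest of them to the start was chr3:55521274-55521673, and its closest FLyA peak lay 1.08 kb away. Neither Santa Cruz list had a peak in the WNT5A window, so none of these 5 sites was seen with the other antibody. The first 69.2 kb of the window, over most of the gene and its 3′ flank, held no peak.

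WNT5B, a close relative of WNT5A, had 8 sites, and the media coincided at 1 of them. That site, chr12:1738893-1739372, lay 13.1 kb after the gene start set by the window. There, the R&D Systems lists of both media and the Santa Cruz FLyB list had a peak. Another R&D Systems FLyB peak followed 3.66 kb further on. The 250 bases before the listed starts of WNT5B are chr12:1616806-1617055 and chr12:1628981-1629230 in GRCh38.p14. The second start lies further into the gene, and how near to it the site of both media lies was not measured. Before the start set by the window, the FLyA peaks lay further out than the FLyB peaks. FLyA peaks stood at 36.1 and 28.7 kb and FLyB peaks at 26.7, 26.0 and 4.7 kb, with no overlap between media. The FLyA peak at 28.7 kb and the FLyB peak at 26.7 kb were 2.01 kb apart. FBXL14 and ADIPOR2 are the neighbouring protein-coding genes of WNT5B, and the distances of these peaks from their starts were not measured.

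WNT11, a ligand of cell movement in gastrulation, had 1 peak per medium in the R&D Systems lists and none in the Santa Cruz lists. No start of WNT11 was listed, so its minus strand was taken from general knowledge. Its start is the limit of the gene body set by the window, rounded to 1 kb. On that basis, the FLyA peak, chr11:75918696-75919095, lay 0.9 kb before the gene start. The FLyB peak, chr11:75895495-75895894, lay 22.3 kb after the start, which is 1.3 kb past the 3′ end, so the peaks were 23.2 kb apart.

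Across the 4 windows with 1 gene, 4 of 23 sites lay within 1 kb of the gene start set by the window. Of these, 2 were sites of R&D Systems FLyB peaks alone (WNT5A and WNT8A), 1 was a site of both media (WNT5A) and 1 was a site of a FLyA peak alone (WNT11). Other listed starts of WNT5A and WNT5B were not used, and the limits are rounded to 1 kb, so this count could change. How often peaks elsewhere lie this close to a gene start was not measured, as no annotation of build hg19 was used here.

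To ask whether BRA binding at these genes differed between the media, each R&D Systems peak was tested for overlap of at least 1 bp with a peak of the other medium. The FLyA list held 30 peaks in the windows, of which 12 (40.0%, exact 95% interval 22.7 to 59.4%) overlapped no FLyB peak, against 67.0% of all FLyA peaks. Of the 37 FLyB peaks, 19 (51.4%, 34.4 to 68.1%) overlapped no FLyA peak, against 63.9% of all FLyB peaks. The interval of the FLyA share thus lay below the value of its whole list, and that of the FLyB share included the value of its list. Both shares rest on the same 18 sites of both media, so setting 1 share against the other compares only the numbers of peaks. That comparison cannot show whether binding was alike or different in the media. Merged into sites, 18 of 49 R&D Systems sites (36.7%, 23.4 to 51.7%) were in both media, against 20.9% of all R&D Systems sites. Without the WNT3 and WNT9B window, 9 of 19 FLyA peaks (47.4%, 24.4 to 71.1%) lacked a FLyB peak and 10 of 31 sites (32.3%, 16.7 to 51.4%) were in both media. The direction of both differences was the same, and the wider intervals of these smaller counts include the values of the whole lists. Overlapping peaks lay a median of 41.5 bp apart, from 4 to 111 bp, and the median over all overlapping peaks was 38 bp.

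These intervals are of the Clopper-Pearson kind, and they cover counting error only. They treat peaks as independent, which neighbouring peaks are not. Each antibody was used in 1 library per medium, so each medium has 2 libraries, which differ in the antibody, and no single share above has a replicate with the same antibody. The media can be paired within an antibody for the part of each list that lay in the windows. It was 0.116% in FLyA and 0.156% in FLyB for the R&D Systems antibody, and 0.205% and 0.233% for the Santa Cruz antibody. The FLyB value was higher in both pairs, and an exact permutation test over the 2 pairs gave a two-sided p of 0.5, the smallest that 2 pairs allow. The number of reads behind a peak is not in the lists. A peak that is missing from a list is therefore not shown to be an unbound site.

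By window, both media shared 8 of the 18 R&D Systems sites of WNT3 and WNT9B, 3 of the 8 of WNT3A and WNT9A, 4 of the 8 of WNT8A, 2 of the 5 of WNT5A, 1 of the 8 of WNT5B and 0 of the 2 of WNT11. The exact intervals of all 6 shares overlap each other. Sites of FLyB alone outnumbered those of FLyA alone for WNT3 and WNT9B (7 and 3) and for WNT5A (3 and 0), and those of FLyA alone were more frequent for WNT8A (3 and 1). Counts of this size leave the order of the windows unsettled.

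The Santa Cruz antibody was the other readout of the same media. Of the 50 sites of the 4 lists, 10 were marked by both antibodies (20.0%, exact 95% interval 10.0 to 33.7%), against 7.05% of all sites. Of these 10 sites, 9 had R&D Systems peaks of both media (90.0%, 55.5 to 99.7%), against 51.7% over the whole series, and without the WNT3 and WNT9B window this was 4 of 4 (39.8 to 100%), an interval that includes the whole series. Counted the other way, 9 of the 18 sites of both media had a Santa Cruz peak of either medium (exact 95% interval 26.0 to 74.0%), against 18.4% over the whole series. Without the WNT3 and WNT9B window, 4 of 31 sites had peaks of both antibodies (12.9%, 3.63 to 29.8%), as did 4 of 10 sites of both media (40.0%, 12.2 to 73.8%), and neither share was then apart from the whole series by more than counting error. Of the 31 sites with an R&D Systems peak of 1 medium, 0 had a Santa Cruz peak of that medium. The exact interval of this share reaches 11.2% and includes the 4.20% of the whole series. By medium, this was 0 of 12 FLyA-only sites (0 to 26.5%) against 1.39% of all such sites, and 0 of 19 FLyB-only sites (0 to 17.6%) against 7.43%. The lack of such sites therefore does not set the windows apart. The FLyB-only and FLyA-only sites named above thus rest on 1 antibody and 1 library, except that the site at chr17:44849796-44850196 also had the Santa Cruz peak of the other medium.

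**Figure D4:**
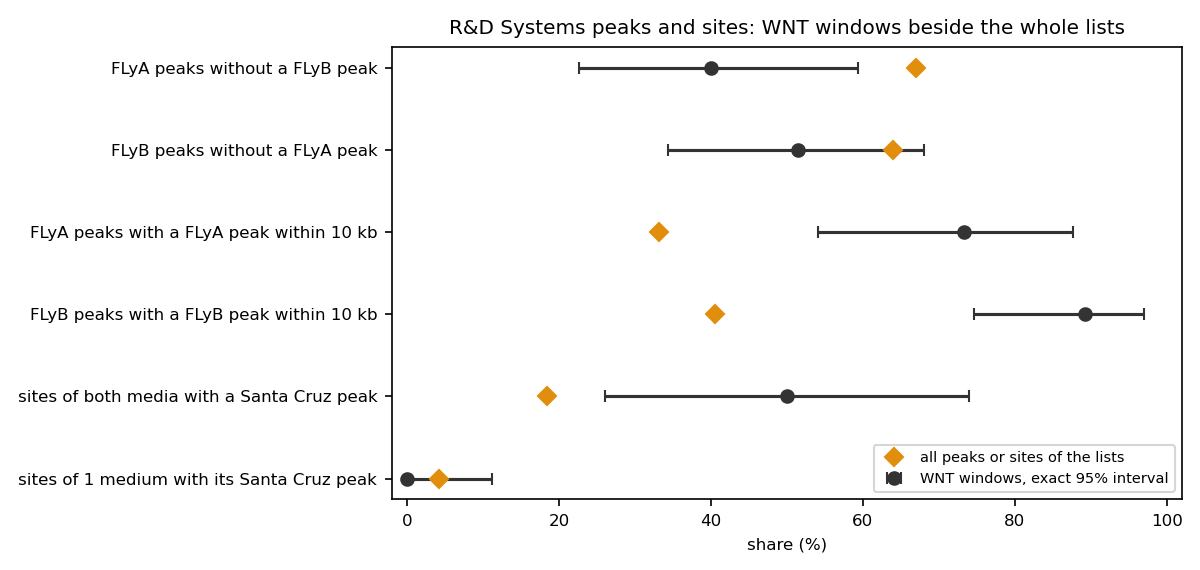
Shares in percent (horizontal axis) of R&D Systems peaks or sites in the WNT windows, as black points with exact 95% intervals, beside the same share over the whole lists (orange diamonds), with all 6 windows included. The diamond lies outside the interval in 4 of the 6 shares and inside it for FLyB peaks without a FLyA peak and for sites of 1 medium with a Santa Cruz peak of that medium.

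By medium, all 7 Santa Cruz FLyB peaks of the windows overlapped an R&D Systems FLyB peak (100%, 59.0 to 100%), against 79.0% of the whole list. All 7 of them also fell on sites with an R&D Systems FLyA peak. Of the 5 Santa Cruz FLyA peaks, 3 overlapped an R&D Systems FLyA peak (60.0%, 14.7 to 94.7%), against 31.9% of the whole list. All 5 lay in the WNT3 and WNT9B window, at 23.6 per Mb. Chromosome 17 as a whole had 2.53 Santa Cruz FLyA peaks per Mb and the series 0.828. In the other direction, a Santa Cruz peak of the same medium overlapped 3 of the 30 peaks of the FLyA list (10.0%, 2.11 to 26.5%) and 7 of the 37 of the FLyB list (18.9%, 7.96 to 35.2%), against 3.02% and 10.0% of the whole lists. Both of these, and both shares of Santa Cruz peaks above, are within counting error of the whole lists. Outside the WNT3 and WNT9B window the first of these counts was 0 of 19 (0 to 17.6%). Within the Santa Cruz lists, 4 of 5 FLyA peaks (80.0%) had no overlapping FLyB peak, against 89.9% of the list, and 6 of 7 FLyB peaks (85.7%) had no overlapping FLyA peak, against 91.7%. Both differences are within counting error. The Santa Cruz lists are the shorter ones, with 2436 and 3007 peaks against 25864 and 23687. The study describes the Santa Cruz libraries as noisier and as poorer in uniquely aligned reads, and the part of this in the missing Santa Cruz peaks was not tested.

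Peaks in the windows stood close together. The median distance from an R&D Systems peak to the next peak of its list was 3.69 kb in FLyA and 2.58 kb in FLyB, against 22.7 and 17 kb over the whole lists. Another peak of the list lay within 10 kb of 22 of the 30 FLyA peaks (73.3%, exact 95% interval 54.1 to 87.7%) and of 33 of the 37 FLyB peaks (89.2%, 74.6 to 97.0%), against 33.2% and 40.6% of all peaks. Without the WNT3 and WNT9B window these shares were 68.4% (43.4 to 87.4%) and 90.9% (70.8 to 98.9%), still above the whole lists. Sites of 1 medium also lay near peaks of the other medium. Of the 12 FLyA peaks without an overlapping FLyB peak, 8 (66.7%, 34.9 to 90.1%) had one within 10 kb, against 23.7% of such peaks in the whole list. Of the 19 FLyB peaks without an overlapping FLyA peak, 15 (78.9%, 54.4 to 93.9%) had one within 10 kb, against 31.1%. Without the WNT3 and WNT9B window the first of these was 5 of 9 (55.6%, 21.2 to 86.3%), an interval that includes the whole list, and the other was 8 of 12 (66.7%, 34.9 to 90.1%). WNT5A is an example, where all 3 FLyB-only sites had a FLyA peak within 5.74 kb, and WNT11 is an exception, where no peak of the other medium was within 10 kb. In the Santa Cruz lists, 2 of 5 FLyA peaks and 2 of 7 FLyB peaks had another peak of the list within 10 kb, against 6.53% and 12.9% of the whole lists. The windows were denser in peaks than the whole lists, and a higher density by itself raises every share within 10 kb. No reference of the same density was used, so these shares are not shown to be a trait apart from the density.

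The limit of 50 kb from the gene body left some peaks just outside. The peak nearest to the limit on the inside was a FLyA peak of the R&D Systems list in the WNT8A window, 3.9 kb from it. On the outside, R&D Systems FLyB peaks lay 0.6 kb past the limit at both WNT5B and WNT11. The closest outer site with a Santa Cruz peak was 67.6 kb from the WNT5A gene body on the side of the gene start, where the R&D Systems lists of both media and the Santa Cruz FLyB list had a peak. At 74.9 kb from the WNT3 and WNT9B pair, on the WNT9B side, a site was called in all 4 lists.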

How the data were processed

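BRA ChIP-seq was carried out in 4 libraries, with 1 library per medium and antibody, and sequenced on a Genome Analyzer II. The submitters' processing notes name Bowtie 0.12.7 and build hg19, and per the paper's methods peaks were called with MACS, which compares read pile-ups with a control. The authors deposited positions only, giving for each 400 bp peak its chromosome and both ends, without a score, fold or p-value. A threshold of 1e-12 stands in the header of the Santa Cruz files. That of the R&D Systems files, the handling of duplicate reads and the control used are not given in the sources used here. A stricter or looser threshold would change every count of peaks, and with 1 input library per medium a control may be common to both antibodies. Read counts were not in the files, and the study states that the Santa Cruz libraries had fewer unique reads and more noise than the R&D Systems libraries.

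Overlaps were computed with Python 3.11.15, exact intervals with SciPy 1.17.1 and figures with matplotlib 3.10.9. Counts of overlapping peaks were checked with bedtools 2.31.1, and the functions were tested on simulated data. At least 1 bp of overlap counted as shared. Tiles covered each chromosome from its first to its last peak. All 8 genes of the windows are named, and peaks are named where both antibodies or both media marked them or where they lie nearest to a gene start. The members and lists were chosen with earlier results of these data known. Gene order and promoters came from RefSeq (GRCh38.p14), except that the strand of WNT11 was taken from general knowledge. Peak sequences, motifs in peaks and the other WNT ligand genes need a genome or annotation of hg19 and were not analysed here. The media were paired within an antibody for an exact permutation test. The alternatives covered the overlap rule, the flank, the antibody and the tile length.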

Additional observations from a re-analysis of the deposited data

How the results depend on the processing

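Of 57 alternative values of the main results, 50 stayed within 1.5 times the count or fold, or inside the exact 95% interval of the share. Several of them could hardly move, so the count does not show that the results are stable. The interval for 3 of 5 Santa Cruz FLyA peaks ran from 14.7 to 94.7%. Tiles of 200 kb have the same mean density as those of 100 kb (13.9 per Mb). A share of 0 stays 0 with a shorter flank or with a window left out. Leaving out the WNT3 and WNT9B window, which was chosen after seeing the data, changed the R&D Systems counts to 19 FLyA and 22 FLyB peaks and the Santa Cruz counts to 0 FLyA and 4 FLyB peaks. The percentage of FLyA peaks of the R&D Systems list with a Santa Cruz FLyA peak was then 0%, since all 5 Santa Cruz FLyA peaks lie in that window. With the Santa Cruz lists alone, the share of peaks without a peak of the other medium was 80.0% in FLyA (4 of 5) and 85.7% in FLyB (6 of 7), and the cause was not tested. With a flank of 20 or 100 kb, or with midpoints at most 200 bp or peaks at most 500 bp apart, that share in the R&D Systems lists ranged from 29.2 to 45% in FLyA and from 48.5 to 56.9% in FLyB. Single windows depended more on the flank. With 100 kb, WNT5A held 16 peaks and WNT11 held 5, and with 20 kb, WNT5B held 6. No R&D Systems site of 1 medium had a Santa Cruz peak of that medium with either flank (0 of 23 with 20 kb and 0 of 47 with 100 kb). With tiles of 200 kb in place of 100 kb, the share of tiles at least as dense as the window was 0.292% for WNT3 and WNT9B, 0.597% for WNT8A and 1.20% for WNT5B. Tiles as long as each window were added after seeing the data. Without the WNT3 and WNT9B window, the exact intervals of the FLyA share without a FLyB peak, of the sites in both media and of the shares of sites with both antibodies reached the values of the whole lists, whereas those of the shares of peaks with another peak of their list within 10 kb did not. The labels give no replicate numbers. Pairing by antibody, also added after seeing the data, leaves 2 pairs, whose smallest exact two-sided p is 0.5.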
